A study of Homo sapiens with 6 samples.

Results

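The genes described here encode the nuclear subunits of respiratory complexes II to V and cytochrome c, the electron carrier between complexes III and IV. They were chosen by symbol. The rule took SDHA to SDHD, CYC1, CYCS and every symbol beginning with UQCR, COX4 to COX8 or ATP5. It used no measured value, but it was set with earlier results of these data known. The rule found 50 genes among the 17177 listed. Complex II had 4 of them, complex III 10, cytochrome c 1, complex IV 16 and complex V 19. No pseudogene had to be dropped, and COX4I2 was not analysed here.

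RNA was sequenced from NCI-H660 cells, an established human line of neuroendocrine prostate cancer (NEPC), a prostate cancer with features of neuroendocrine cells. The 3 control libraries came from cells given phosphate-buffered saline (PBS) and the other 3 from cells given PP, the study's abbreviation for the anthelmintic drug pyrvinium pamoate. All 6 libraries were labelled WT for genotype and were taken on day 3. A single cell line was used, and the labels do not say whether libraries of a group came from separate cultures. The text of the study speaks of independent samples in one place and of duplicates in another, so p-values measure the spread between these libraries, which may be technical.

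Complex II, or succinate dehydrogenase, oxidises succinate and belongs to both the citric acid cycle and the respiratory chain. Complex III passes electrons from ubiquinol to cytochrome c, and complex IV, or cytochrome c oxidase, passes them to oxygen. The proton gradient so built drives complex V, the ATP synthase, in which a turning ring of c subunits rotates the shaft inside the F1 head. Most subunits of these complexes are encoded in the nucleus, translated in the cytosol and imported into mitochondria, whereas a few core subunits of complexes III, IV and V are encoded by mitochondrial DNA and were not analysed here.

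Promoters of such genes are known for sites of the transcription factors NRF1, GABP (an ETS factor) and YY1. RefSeq promoter windows of the GRCh38.p14 assembly, each 300 bases long with 250 before and 50 after the annotated start, were matched for 39 of the 50 genes. Both strands were searched for 5 motifs, GCGCATGC and its variant GCGCCTGC for NRF1, CCGGAAG for ETS factors, AAGATGGC for YY1 and CACGTG for E-box factors. The variant was added after the SDHA promoter had been read. GCGCATGC was present in 9 of the 39 windows, or 23.1%, against 3.27% of all 27305 promoters and 5.71% of the 9557 promoters of genes tested here. GCGCCTGC was also present in 9, against 6.20% and 11.1%. CCGGAAG was present in 15, or 38.5%, against 10.7% and 20.3%. AAGATGGC was present in 5, or 12.8%, against 3.03% and 5.71%, and CACGTG in 4, or 10.3%, against 7.44% and 10.4%. Among all promoters, the ETS and YY1 motifs overlapped in 6 and both NRF1 forms in 11. These are matches of letters and do not show that a factor bound.

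Promoters of 6 genes are given 5′ to 3′ on the gene's strand, with matches to the 5 motifs in capitals. SDHA (chr5:218070-218369, plus strand) and SDHB (chr1:17053983-17054282, minus strand) are shown because these partners in the head of complex II moved in opposite directions. ATP5MC1 (chr17:48892537-48892836, plus strand) and ATP5MC2 (chr12:53676034-53676333, minus strand) are shown because both encode subunit c and had different changes. COX5B (chr2:97645812-97646111, plus strand) and COX6A1 (chr12:120437863-120438162, plus strand) stand for complex IV.
SDHA: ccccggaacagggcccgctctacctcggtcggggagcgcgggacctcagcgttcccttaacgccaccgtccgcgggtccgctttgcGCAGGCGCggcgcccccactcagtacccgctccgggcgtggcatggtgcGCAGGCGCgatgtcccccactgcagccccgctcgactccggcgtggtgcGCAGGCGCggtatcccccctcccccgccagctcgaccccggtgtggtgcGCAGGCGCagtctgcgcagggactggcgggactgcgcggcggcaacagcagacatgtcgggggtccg
SDHB: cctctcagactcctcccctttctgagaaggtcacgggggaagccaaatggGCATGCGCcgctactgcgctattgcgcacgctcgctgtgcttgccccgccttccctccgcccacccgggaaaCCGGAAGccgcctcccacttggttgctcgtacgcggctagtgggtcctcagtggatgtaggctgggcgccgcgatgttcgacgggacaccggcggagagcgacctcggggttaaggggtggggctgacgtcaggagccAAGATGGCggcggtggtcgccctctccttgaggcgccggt
ATP5MC1: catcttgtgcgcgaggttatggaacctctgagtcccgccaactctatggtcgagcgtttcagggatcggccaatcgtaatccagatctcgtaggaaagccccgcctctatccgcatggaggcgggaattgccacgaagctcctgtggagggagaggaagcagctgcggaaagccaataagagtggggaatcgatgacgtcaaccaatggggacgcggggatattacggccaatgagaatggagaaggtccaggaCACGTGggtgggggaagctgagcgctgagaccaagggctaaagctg
ATP5MC2: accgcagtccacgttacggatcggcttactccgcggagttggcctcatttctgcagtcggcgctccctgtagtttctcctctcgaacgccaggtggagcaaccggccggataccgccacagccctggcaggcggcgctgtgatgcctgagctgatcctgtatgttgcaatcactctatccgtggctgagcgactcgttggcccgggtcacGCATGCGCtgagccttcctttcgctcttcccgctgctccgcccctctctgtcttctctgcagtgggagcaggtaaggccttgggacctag
COX5B: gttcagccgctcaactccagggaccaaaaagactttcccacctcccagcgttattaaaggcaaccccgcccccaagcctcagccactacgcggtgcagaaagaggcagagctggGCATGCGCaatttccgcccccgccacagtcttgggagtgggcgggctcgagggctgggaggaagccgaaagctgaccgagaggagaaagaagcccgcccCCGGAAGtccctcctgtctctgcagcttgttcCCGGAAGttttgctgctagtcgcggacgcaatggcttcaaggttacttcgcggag
COX6A1: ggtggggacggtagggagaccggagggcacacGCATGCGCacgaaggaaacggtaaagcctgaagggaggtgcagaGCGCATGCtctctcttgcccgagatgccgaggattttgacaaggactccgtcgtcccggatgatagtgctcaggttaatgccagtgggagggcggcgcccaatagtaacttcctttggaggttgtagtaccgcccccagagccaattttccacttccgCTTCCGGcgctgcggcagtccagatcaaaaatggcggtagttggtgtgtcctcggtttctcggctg

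The SDHA window held GCGCCTGC 4 times, each read on the opposite strand, and none of the other 4 motifs. In SDHB, GCGCATGC, CCGGAAG and AAGATGGC were each present 1 time. COX5B held 1 GCGCATGC and 2 CCGGAAG, and COX6A1 held 2 GCGCATGC and 1 CCGGAAG. ATP5MC1 held 1 CACGTG, and ATP5MC2 held 1 GCGCATGC.

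Values are FPKM, which divide the fragments of a gene by its length and by the depth of the library. Each library held between 29064253 and 32481171 counts, recovered from the FPKM steps. Fold changes compare PP with PBS as differences of log2(FPKM + 1), a scale that makes changes of low genes look smaller. A change was called where limma gave an adjusted p (Benjamini-Hochberg) below 0.05 over the 11726 genes with a mean of at least 1 FPKM. The neuroendocrine markers CHGA, CHGB, SYP, NCAM1, ENO2 and INSM1 were all detected, at 14.8 FPKM or more in every library. Of these, CHGA, which encodes a protein of secretory granules, was at 42.4 to 44.1 FPKM in PBS and 23.5 to 25.5 in PP. NCAM1, a cell adhesion molecule, was at 14.8 to 15.8 in PBS and 15.2 to 15.7 in PP. CHGB, SYP and ENO2 were lower in PP as well (log2 fold changes -0.32, -0.23 and -0.15). INSM1 was higher (0.21), and each of these had an adjusted p under 0.05 by limma. The leukocyte marker PTPRC and the endothelial marker PECAM1 stayed at or under 0.0204 FPKM in every library, and the 6 markers of immune cells, fibroblasts and endothelium summed to between 6.11 and 6.53 FPKM in all libraries. Within that sum the fibroblast marker COL1A1 was higher, at 3.20 to 3.45 FPKM in PBS and 4.05 to 4.29 in PP (adjusted p = 0.00200), and the macrophage marker CD68 was at 1.30 to 1.53 and 0.840 to 1.25 (adjusted p = 0.0524). COL1A2 and VWF, below the filter, were each under 0.915 FPKM and had lower PP values. The part of the differences in these markers in the results that follow was not tested. In bulk RNA, fewer cells of a type and less RNA per cell cannot be told apart.

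Most transcripts of the respiratory subunits were lower in PP-treated cells. Of the 50 genes, 44 passed the filter on mean FPKM, 34 of them were lower, 3 were higher (SDHB, CYCS and COX7A2L) and 7 passed the test in neither direction. The background was high, since 34.4% of all genes tested were lower and 38.1% were higher. The share of the 44 that were lower was 77.3%, and that of the higher ones 6.82%. The median log2 fold change was -0.40, against 0.02 over all genes tested. The largest fall was 0.96 on the log2 scale, in COX6C. No member passed the stricter cutoff in the study's methods, an unadjusted P under 0.001 with a log2 fold change beyond 1. Of all genes tested, 2.93% passed it downward and 2.24% upward. The study's RNA sequencing methods name a P threshold equal in value to that used here for adjusted p, with no fold change limit. All 34 lower and 3 higher genes passed that threshold. In 35 of the 44 genes all 3 PP libraries lay below all 3 PBS libraries, or 79.5%, against 35.5% of all genes tested. The 3 genes called higher had all PP libraries above all PBS libraries, and 6 genes overlapped.

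Summed over the 44 genes, FPKM was 5027, 5063 and 5191 in the PBS libraries and 3781, 3638 and 3551 in the PP libraries. As a share of all FPKM in a library, the sum was 1.58%, 1.59% and 1.63% in PBS and 1.22%, 1.18% and 1.16% in PP. Every PP sum was below every PBS sum, and the plot of values by library gives each gene on its own.

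**Figure D1:**
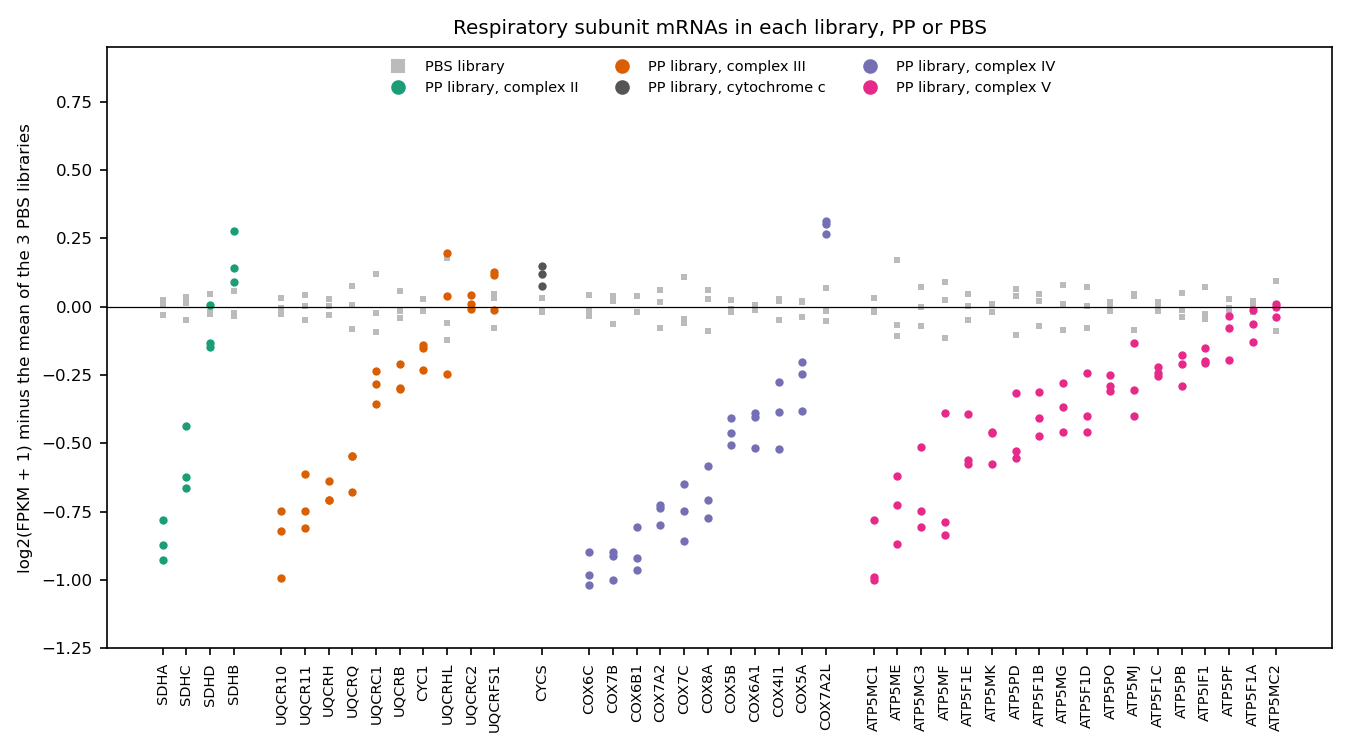
Log2(FPKM + 1) of each of the 44 tested genes in each of the 6 libraries (grey squares PBS, coloured points PP), as the difference from the mean of the 3 PBS libraries, ordered by complex. Most genes are lower in all 3 PP libraries, down to -1.02 for COX6C in PP replicate 2, whereas SDHB, CYCS and COX7A2L are higher in all 3.

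**Figure D2:**
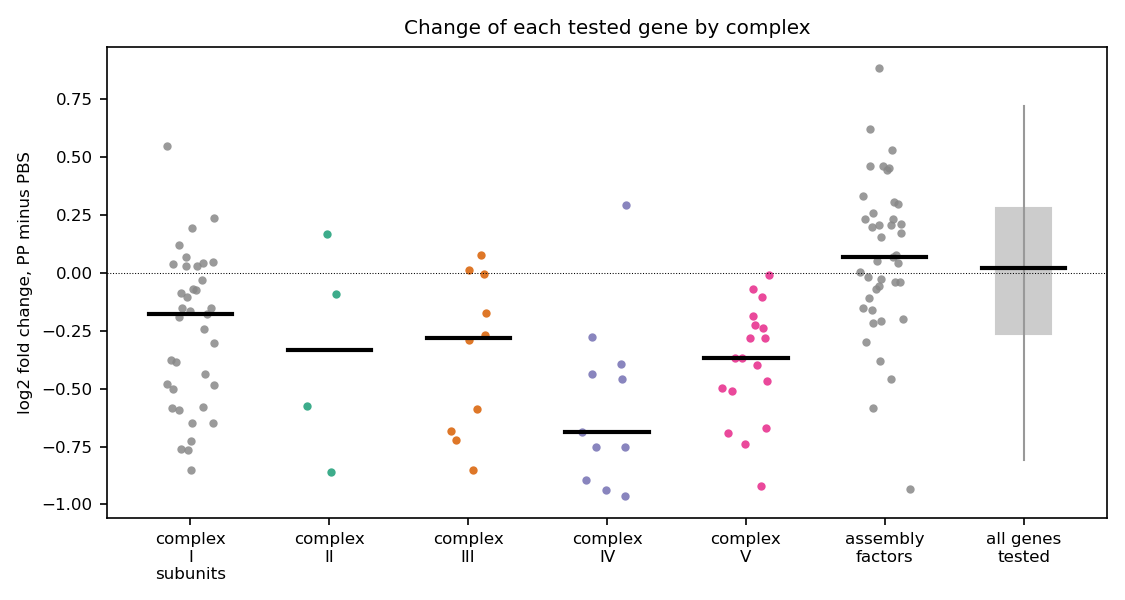
Log2 fold change of PP against PBS for each tested gene (points), by complex, with the median of each group, beside complex I subunits, assembly factors and all genes tested (box from the 25 to the 75 percentile, line from 5 to 95). The medians are -0.33 for complex II, -0.28 for complex III, -0.69 for complex IV, -0.37 for complex V, -0.18 for complex I subunits and 0.07 for assembly factors.

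Complex II split between its subunits, with SDHA and SDHC lower, SDHB higher and SDHD passing the test in neither direction. SDHA, the flavoprotein that binds succinate, had 63.6, 65.3 and 66.1 FPKM in PBS libraries and 37.5, 35.0 and 33.7 in PP libraries. All PP libraries were far below all PBS libraries, and the level in PP was 54.5% of that in PBS. The change amounted to a log2 fold change of -0.86 ± 0.04 (SE, n = 3 libraries per group, adjusted p = 5.31e-08 by limma). SDHA has near-identical pseudogene copies, and how reads shared with them were assigned is not given in the sources used here.

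SDHB, the iron-sulfur subunit that sits on SDHA in the same head, had 93.8, 94.6 and 99.98 FPKM in PBS and 102, 117 and 106 in PP. The lowest PP library was only slightly above the highest PBS library. Its log2 fold change was 0.17 ± 0.05 (SE, n = 3, adjusted p = 0.0104 by limma). SDHA and SDHB are joined in the same head, yet the 95% intervals of their log2 fold changes, -0.96 to -0.76 and 0.06 to 0.28, lay on opposite sides of 0.

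The membrane anchors SDHC and SDHD, which hold heme and the ubiquinone site, also differed in value. SDHC had 36.0, 37.7 and 38.2 FPKM in PBS against 27.3, 23.2 and 23.8 in PP, with no overlap. SDHC had a log2 fold change of -0.57 ± 0.06 (SE, n = 3, adjusted p = 9.46e-06 by limma). SDHD had 33.0, 34.8 and 33.1 FPKM in PBS against 33.7, 30.3 and 30.6 in PP, so that the first PP library lay within the PBS range. Its log2 fold change was -0.09 ± 0.05 (SE, n = 3, adjusted p = 0.111 by limma), with a 95% interval of -0.20 to 0.02. Without PP replicate 1, SDHD was called lower (-0.14, adjusted p = 0.0150).

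**Figure D3:**
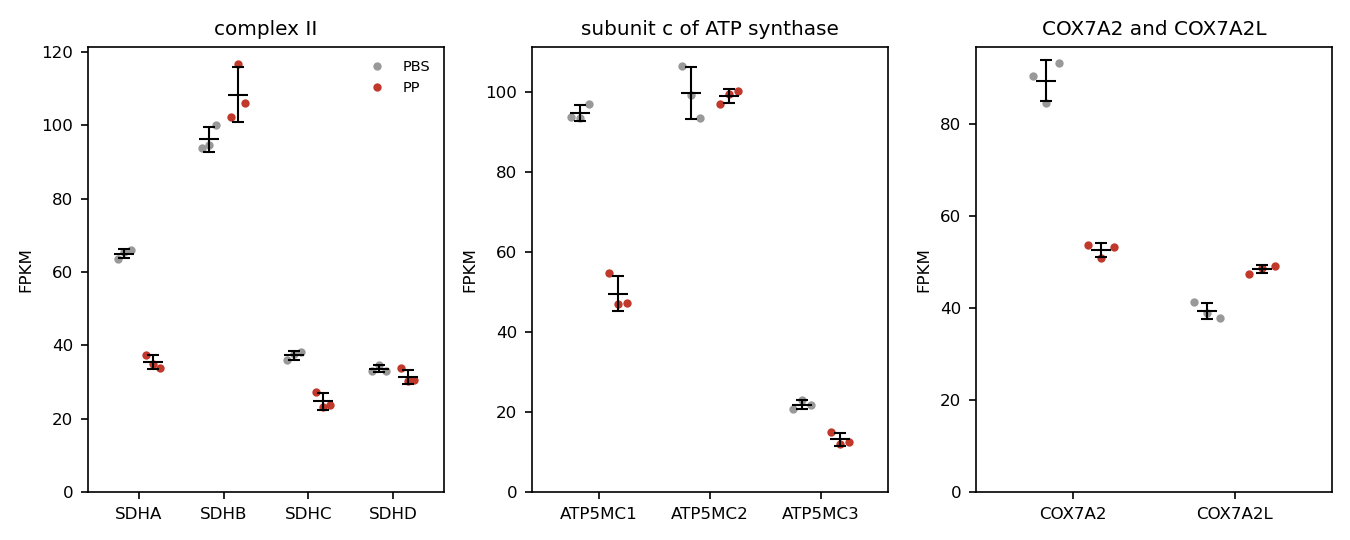
FPKM in each library (points, 3 PBS and 3 PP, with the mean and SD) for subunits of a shared structure whose changes differed. SDHA falls from 63.6 to 66.1 in PBS to 33.7 to 37.5 in PP while SDHB lies at 102 to 117 in PP, and ATP5MC2 overlaps between groups while ATP5MC1 does not.

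In complex III, 7 of 10 genes were lower, none was higher and the median was -0.28. Of the 6 small subunits around the catalytic core, 5 were lower, with a median of -0.64, and the core proteins and redox subunits had 1 of 2 lower each. UQCR10, which lies next to the cytochrome c1 subunit, had 60.9, 61.7 and 63.4 FPKM in PBS and 36.6, 34.7 and 30.6 in PP. UQCR11, another small membrane subunit, had 67.5, 65.6 and 63.2 in PBS and 42.5, 36.9 and 38.6 in PP. Neither gene overlapped between groups. Their log2 fold changes were -0.85 ± 0.06 for UQCR10 (SE, n = 3, adjusted p = 4.43e-07) and -0.72 ± 0.05 for UQCR11 (SE, n = 3, adjusted p = 6.89e-07).

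UQCRH, the hinge protein that helps cytochrome c dock, had 211, 215 and 206 FPKM in PBS and 135, 128 and 128 in PP. Every PP library was below every PBS library, and the log2 fold change was -0.68 ± 0.03 (SE, n = 3, adjusted p = 4.22e-08 by limma). UQCRHL, a gene whose sequence is nearly that of UQCRH, had 13.7, 13.1 and 16.3 FPKM in PBS and 14.7, 11.9 and 16.5 in PP. The groups overlapped fully, and its log2 fold change was -0.004 ± 0.11 (SE, n = 3, adjusted p = 0.975). Since both genes can share reads, the values of UQCRHL are uncertain, and its 95% interval of -0.25 to 0.24 was wide. With the length trend of each library removed it passed as higher (0.28, adjusted p = 0.0370). UQCRHL took 6.39% ± 0.84 (SD, n = 3) of the FPKM of both genes in PBS and 9.89% ± 1.47 in PP. That difference of 3.51 points had an exact two-sided permutation p of 0.1, the smallest that 3 against 3 libraries allow, or 0.16 after adjustment over 8 shares.

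UQCRQ, which binds ubiquinone with cytochrome b, was lower by -0.59, and UQCRB, a small matrix-facing subunit, by -0.27. Of the core proteins, UQCRC1 was lower (log2 fold change -0.29, adjusted p = 0.000727), whereas UQCRC2 had 55.2, 55.1 and 55.8 FPKM in PBS and 55.1, 57.1 and 55.8 in PP. The UQCRC2 values were nearly the same in all 6 libraries, with a log2 fold change of 0.02 ± 0.03 (SE, n = 3, adjusted p = 0.698, 95% interval -0.06 to 0.09).

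Of the redox subunits, CYC1, the cytochrome c1 heme protein, was lower by a small amount, from a mean of 156 FPKM to 138 (log2 fold change -0.17, adjusted p = 0.00111). UQCRFS1, the Rieske iron-sulfur protein, had 20.9, 22.9 and 22.6 FPKM in PBS and 24.2, 24.1 and 21.9 in PP. One PP library lay inside the PBS range. UQCRFS1 had a log2 fold change of 0.08 ± 0.05 (SE, n = 3, adjusted p = 0.209), and it passed the test as higher when FPKM was rescaled to equal totals (0.13, adjusted p = 0.0452).

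Cytochrome c, which carries electrons in the intermembrane space and is also known for its release in apoptosis, was slightly higher. CYCS had 31.7, 31.8 and 32.9 FPKM in PBS and 35.0, 33.9 and 35.8 in PP. All PP libraries were above all PBS libraries by a narrow margin. The log2 fold change was 0.12 ± 0.04 (SE, n = 3, adjusted p = 0.0194 by limma). The call was lost without PBS replicate 1 (0.11, adjusted p = 0.0563), without PBS replicate 2 (0.11, adjusted p = 0.0658) and without PP replicate 3 (0.098, adjusted p = 0.0555).

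Complex IV had the lowest median of the 4 complexes, at -0.69, with 10 of 11 tested genes lower and 1 higher. The 10 were all of the tested subunits common to most tissues, with log2 fold changes from -0.96 to -0.28. Summed FPKM of the 11 genes was 2018, 2027 and 2109 in PBS and 1361, 1263 and 1247 in PP. When the trend of log2 values with gene length was removed within each library, the same 10 genes still passed as lower, but the median of complex IV became -0.38.

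COX6C and COX7B, small subunits that span the membrane at the rim of the enzyme, had the lowest fold changes. COX6C had 195, 198 and 206 FPKM in PBS and 107, 98.1 and 101 in PP, and its level in PP was 51.0% of that in PBS. COX6C had a log2 fold change of -0.96 ± 0.04 (SE, n = 3, adjusted p = 1.09e-08). COX7B had 51.2, 51.9 and 48.2 FPKM in PBS and 26.6, 24.7 and 26.3 in PP. No PP library of either gene came near the PBS range. The log2 fold change of COX7B was -0.94 ± 0.04 (SE, n = 3, adjusted p = 3.32e-08), and with the length trend removed these genes remained the lowest of the complex, at -0.84 and -0.95.

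COX6B1, a subunit facing the intermembrane space where the dimeric enzyme joins, was the most abundant of the 44 genes in FPKM in PBS libraries. Its FPKM was 554, 553 and 576 in PBS and 321, 287 and 296 in PP. The groups were widely separated, with a log2 fold change of -0.90 ± 0.04 (SE, n = 3, adjusted p = 3.07e-08). COX7A2, the common form of subunit 7A, had 90.3, 84.4 and 93.3 FPKM in PBS and 53.6, 50.9 and 53.2 in PP. COX8A, a short membrane-spanning subunit, had 316, 342 and 349.8 in PBS and 224, 196 and 205 in PP. Neither overlapped between groups. Their log2 fold changes were -0.75 ± 0.04 for COX7A2 (SE, n = 3, adjusted p = 1.32e-07) and -0.69 ± 0.05 for COX8A (SE, n = 3, adjusted p = 1.14e-06).

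COX6A1, the common form of subunit 6A, had 248, 244 and 247 FPKM in PBS and 188, 186 and 172 in PP, with a log2 fold change of -0.44 ± 0.04 (SE, n = 3, adjusted p = 2.75e-06). COX6A1 was at -0.16 and still lower with the length trend removed (adjusted p = 0.000950). COX5A, which faces the matrix, had 98.3, 94.2 and 97.9 FPKM in PBS and 83.9, 81.3 and 74.0 in PP. It had the smallest fall of the 10 common subunits, with a log2 fold change of -0.28 ± 0.05 (SE, n = 3, adjusted p = 0.000372), and its groups did not overlap. With the length trend removed COX5A was at -0.22, and COX6A1 then had the smallest fall of the 10. Of the others, COX7C was at -0.75, COX5B at -0.46 and COX4I1, the largest nuclear subunit and a site of ATP inhibition, at -0.39, all called lower.

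COX7A2L, also known as a factor that helps complexes III and IV join into supercomplexes, went the other way. It had 41.3, 38.9 and 37.9 FPKM in PBS and 47.5, 48.7 and 49.2 in PP, so that every PP library was above every PBS library. The log2 fold change was 0.29 ± 0.04 (SE, n = 3, adjusted p = 8.68e-05), and under the 15 alternative settings it ranged from 0.27 to 0.34. Its relative COX7A2, of the same subunit family, was lower, as given above.

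The tissue-restricted forms, known from muscle or testis, were near 0 throughout. COX7A1 was listed at 0 in all 6 libraries. COX6A2 had 0.347, 1.93 and 1.12 FPKM in PBS and 0.613, 0.801 and 0.574 in PP, on 4 to 21 counts per library. COX7B2 had 0.940, 0.514 and 0.675 FPKM in PBS and 0.392, 0.0997 and 0.429 in PP, on 3 to 29 counts. COX6B2 stayed at or under 0.0923 FPKM in every library, on 1 to 6 counts, and COX8C between 0.0590 and 0.818, on 1 to 14 counts. These 4 genes were below the filter, and each took at most 1.80% of the FPKM of its isoform pair in any library. COX8C took 0.142% of its pair in PBS and 0.369% in PP, with an exact two-sided permutation p of 0.1 (0.16 after adjustment over the 8 shares), while the shares of COX6A2, COX6B2 and COX7B2 had exact p values of 0.7, 0.9 and 0.7.

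In complex V, 15 of 18 tested genes were lower, none was higher and the median was -0.37. All 5 tested membrane subunits were lower, as were 4 of 5 subunits of the F1 head, 3 of 4 of the peripheral stalk, 2 of 3 of the c-ring and the inhibitor ATP5IF1. Summed FPKM of the 18 genes was 1989, 2005 and 2036 in PBS and 1589.5, 1560.4 and 1514 in PP. With the length trend removed, 13 were lower and the median was -0.23.

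The 3 c-ring genes encode the same mature subunit c behind different import sequences, and their changes were unequal. ATP5MC1 had 93.8, 93.5 and 97.0 FPKM in PBS and 54.7, 46.9 and 47.3 in PP. ATP5MC3 had 20.8, 23.0 and 21.8 in PBS and 15.003, 12.1 and 12.6 in PP. Both had all PP libraries below all PBS libraries, with log2 fold changes of -0.92 ± 0.06 for ATP5MC1 (SE, n = 3, adjusted p = 1.87e-07) and -0.69 ± 0.07 for ATP5MC3 (SE, n = 3, adjusted p = 1.26e-05). ATP5MC2 had 106, 99.3 and 93.5 FPKM in PBS and 97.1, 99.6 and 100.3 in PP. The PP values fell within the PBS range, and the log2 fold change was -0.01 ± 0.05 (SE, n = 3, adjusted p = 0.869, 95% interval -0.11 to 0.09).

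The makeup of subunit c transcripts differed accordingly. ATP5MC2 took 48.2%, 46.0% and 44.0% of the summed FPKM of the 3 genes in PBS libraries and 58.2%, 62.8% and 62.6% in PP libraries. Its mean share was 46.1% ± 2.07 (SD, n = 3) in PBS and 61.2% ± 2.60 in PP, 15.1 points higher. The share of ATP5MC1 went from 43.8% to 30.6% and that of ATP5MC3 from 10.1% to 8.16%. Groups did not overlap in any of the 3 shares, and each had an exact two-sided permutation p of 0.1, the smallest possible here, or 0.16 after Benjamini-Hochberg adjustment over the 8 shares compared. On recovered counts, which weight genes of longer implied length more, the ATP5MC2 share went from 69.0% to 79.6%. The share of ATP5MC1 went from 14.7% to 8.92% and that of ATP5MC3 from 16.3% to 11.5%.

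In the F1 head, which makes ATP, ATP5F1B, the catalytic beta subunit, had a mean of 540.1 FPKM in PBS and 409.9 in PP, with a log2 fold change of -0.40 (adjusted p = 2.14e-05). Its partner in the hexamer, the alpha subunit ATP5F1A, had 57.8, 58.6 and 59.5 FPKM in PBS and 58.1, 56.1 and 53.5 in PP. One PP library lay inside the PBS range, and the log2 fold change of ATP5F1A was -0.07 ± 0.04 (SE, n = 3, adjusted p = 0.134, 95% interval -0.16 to 0.02). Without PP replicate 1 it was called lower (-0.097, adjusted p = 0.0493). The gamma, delta and epsilon subunits of the central shaft, ATP5F1C, ATP5F1D and ATP5F1E, were lower, at -0.24, -0.37 and -0.51.

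Of the membrane subunits, ATP5ME, known as subunit e and as a contact between synthase dimers, had 121, 125 and 147 FPKM in PBS and 84.7, 71.0 and 78.6 in PP. The spread within PBS was wide but the groups did not overlap, and the log2 fold change was -0.74 ± 0.08 (SE, n = 3, adjusted p = 1.15e-05). ATP5MF, ATP5MK, ATP5MG and ATP5MJ were lower too, at -0.67, -0.50, -0.37 and -0.28. With the length trend removed, ATP5ME was at -0.27 and still lower, and ATP5MJ no longer passed (-0.14, adjusted p = 0.0716). ATP5MGL was listed at 0 in all 6 libraries.

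The peripheral stalk, which keeps the head from turning, had smaller changes, with ATP5PD at -0.47, ATP5PO at -0.28 and ATP5PB at -0.23, all lower. ATP5PF had a mean of 55.8 FPKM in PBS and 51.9 in PP. Its groups did not overlap, but the log2 fold change of -0.10 missed the threshold (adjusted p = 0.0609). ATP5IF1, the inhibitor that stops the synthase from running backward, had 203, 189 and 187 FPKM in PBS and 167, 174 and 168 in PP, below the PBS range in all 3. Its log2 fold change was -0.19 ± 0.04 (SE, n = 3, adjusted p = 0.00124), but with the length trend removed the value turned to 0.07 (adjusted p = 0.170).

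The gene length implied by the FPKM steps moved with the change. That length need not be the length of the transcript, and for UQCRB, a small subunit, it was 8787 bases. The length implied by the FPKM steps was under 1000 bases for 18 of the 44 genes, and 17 of these were lower with a median of -0.58, against 49.2% lower and a median of -0.15 for the 482 tested genes of that length. Between 1000 and 3000 bases, 15 of 21 members were lower, or 71.4%, against 36.8% of 3648 genes. Over 3000 bases, 2 of 5 members were lower, against 32.3% of 7596 genes. Across genes, which are not independent replicates, Spearman's rho between log2 fold change and implied length was 0.38 over the 44 members and 0.063 over all genes tested. The 10 common complex IV subunits showed a rho of -0.04 over these genes. With the length trend removed, 32 of the 44 genes were lower and 4 higher, with a median of -0.27. Of the 34 genes called lower, 11 then had a value more than 1.5 times smaller or of the other sign, all of them under 1000 bases. Of these 11, 9 still passed as lower, namely COX6A1 at -0.16, COX8A at -0.38, COX5B at -0.25, COX6B1 at -0.59, ATP5ME at -0.27, ATP5MF at -0.33, ATP5PD at -0.22, ATP5F1D at -0.16 and ATP5PO at -0.10, and ATP5IF1 and ATP5MJ did not pass. The longer SDHA and COX7B were at -0.86 and -0.95, and SDHB, called higher, was at 0.27.

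**Figure D4:**
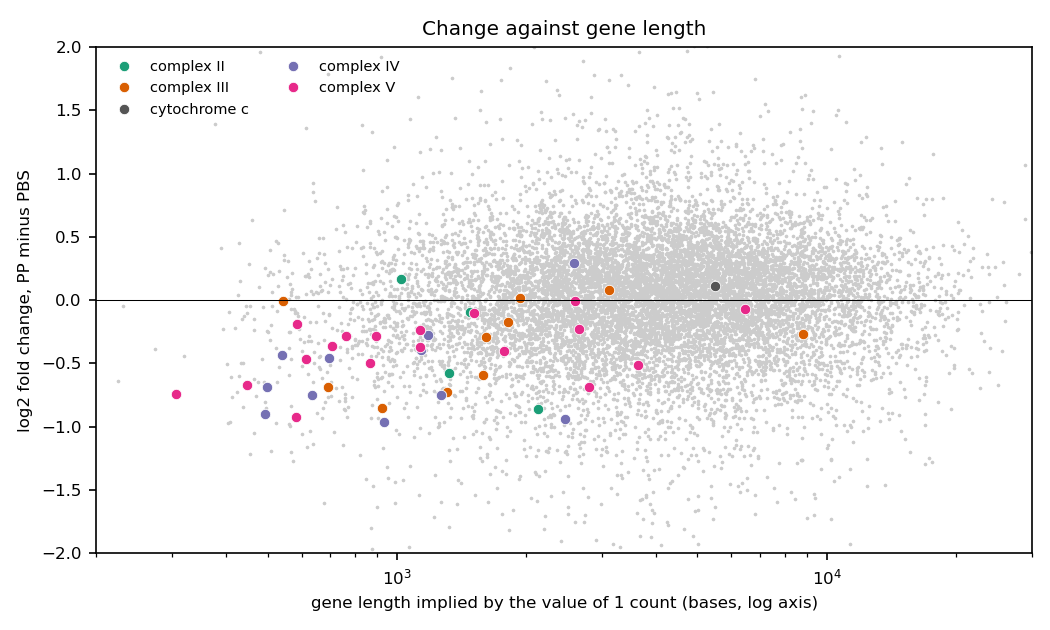
Log2 fold change of PP against PBS (vertical axis) against the gene length implied by the FPKM steps (horizontal log axis, in bases) for the 44 members, coloured by complex, over all genes tested in grey (72 lie outside the axes). Of the 18 members under 1000 bases 17 were lower, and members such as SDHA at 2125 bases and COX7B at 2466 bases are low as well.

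Genes of the same pathway outside the rule were placed beside these values. NDUFA4, first assigned to complex I and now placed in complex IV, was lower, from a mean of 40.7 FPKM to 24.7 (log2 fold change -0.70, adjusted p = 1.84e-06). C15orf48, a paralog of NDUFA4, was at about 1 FPKM with overlapping groups (log2 fold change -0.34, adjusted p = 0.0463), and missed the threshold with the length trend removed (-0.12, adjusted p = 0.599) and with limma's voom on recovered counts (adjusted p = 0.113). Of 37 nuclear complex I subunits, 23 were lower and 4 higher, with a median of -0.18. These shares, 62.2% lower and 10.8% higher, stood beside 34.4% and 38.1% of all genes tested. Removal of the length trend left 16 lower and 8 higher, with a median of -0.085. Over all 11726 genes tested it left 4086 lower and 4453 higher. The lowest complex I subunit was NDUFS5 at -0.85, from 322, 325 and 341 FPKM in PBS to 173, 190.0 and 184 in PP. The highest was NDUFV3 at 0.55, from 6.67, 7.04 and 6.63 to 10.4, 9.57 and 11.2. The difference in medians between complex I and the members was not tested.

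Assembly factors, which build the complexes but are not part of them, had shares near those of all genes. Of 41 tested, 18 were higher and 10 lower, or 43.9% and 24.4%, against 38.1% and 34.4% of all genes, with a median of 0.07 against 0.02. The 10 became 6 without PBS replicate 2 and also with FPKM rescaled to equal totals. PET100, needed for complex IV, was the lowest at -0.93, from 119, 106 and 108 FPKM in PBS to 57.3, 57.8 and 57.8 in PP (adjusted p = 2.63e-08). LYRM7, an assembly factor for the Rieske protein UQCRFS1 of complex III, was the highest at 0.88, from 3.96, 4.30 and 3.79 FPKM to 8.09, 8.23 and 8.43 (adjusted p = 2.94e-07). For both genes the groups were far apart. COA7 of complex IV was also higher, at 0.62.

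Of 9 transcription factors and coactivators known for respiratory genes, 7 were higher, 1 lower and 1 passed in neither direction. These shares, 77.8% higher and 11.1% lower, stood beside 38.1% and 34.4% of all genes tested. PPRC1, a coactivator of the PGC-1 family, had 10.3, 11.0 and 11.0 FPKM in PBS and 22.7, 23.6 and 22.1 in PP, with a log2 fold change of 1.02 (adjusted p = 2.68e-08). NRF1 had 8.01, 8.83 and 8.26 FPKM in PBS and 15.9, 16.7 and 15.7 in PP, with a log2 fold change of 0.87 (adjusted p = 1.47e-07). Every PP library of both genes was above every PBS library. GABPB1 was higher by 0.55, PPARGC1A by 0.40, YY1 by 0.21, GABPA by 0.17 and TFAM, which packages mitochondrial DNA, by 0.15. PPARGC1B was lower, at -0.24, and ESRRA had a value of -0.06 (adjusted p = 0.490). Among members with a promoter window, GCGCATGC was present in 4 of 26 called lower, 2 of 3 called higher and 3 of 6 in neither class. The variant GCGCCTGC was present in 7 of 26, 0 of 3 and 1 of 6, and CCGGAAG in 12 of 26, 1 of 3 and 2 of 6. AAGATGGC was present in 3 of 26, 1 of 3 and 1 of 6, and CACGTG in 4 of 26, 0 of 3 and 0 of 6. Over the promoters of all genes tested, the shares were 5.71% for GCGCATGC, 11.1% for GCGCCTGC and 20.3% for CCGGAAG. They were 5.71% for AAGATGGC and 10.4% for CACGTG. No test was made of these counts.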

How the data were processed

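RNA of 6 libraries of NCI-H660 cells, 3 PBS and 3 PP, was measured by stranded mRNA sequencing. The deposited table gives FPKM per gene, as the authors made it, with 1 column per library. The submitters' processing notes list fastp, HISAT2, HTSeq and GRCh38, whereas the study's methods name Bowtie, RSEM, Cufflinks and another human build. Which of them made these values is not given in the sources used here, nor is the handling of reads shared between gene copies. Every column could be assigned to a library by its name. FPKM values of a gene are whole multiples of a step, so counts were recovered for 17177 genes, whole to within 0.01 counts, and a length was implied from the step. Depth was 29064253 to 32481171 counts per library.

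Groups were taken from the titles. FPKM was tested as log2(FPKM + 1) in limma 3.58.1 (R 4.3.3) by a linear model with moderated variances that followed mean intensity and no covariates, PP against PBS, over 11726 genes with a mean of at least 1 FPKM, with Benjamini-Hochberg adjustment and calls under 0.05. The other 5451 listed genes were not tested. Isoform shares were compared by exact two-sided permutation, and Spearman's rho was computed with scipy 1.17.1. The fit was tested on simulated data with known changes. Alternatives were a pseudocount of 0.1, a minimum of 5 FPKM, no minimum, equal totals, median-ratio size factors, no intensity trend, a replicate block, limma's voom on recovered counts, removal of the length trend, and leaving out each library.

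All members could be named. Those given in full were the lowest and highest pair by fold change in each complex and isoform-set genes of at least 1 FPKM, and from other lists the lowest and highest gene. YY1, NDUFA4, COA7 and the other factors named beyond these were added with their values known. The members and gene lists were chosen with earlier results of these data known. Promoter sequences are from RefSeq. Some marker genes are not reported here.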

Additional observations from a re-analysis of the deposited data

How the results depend on the processing

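Over 43 members without CYCS and 15 alternatives, 631 of 645 values kept their direction and their side of the threshold, 8 turned in sign. Calls were lost in 2 of the 645 values (ATP5MJ and ATP5IF1, both with the length trend removed) and newly made in 6, over 5 members. CYCS, counted apart, also lost its call without PBS replicate 1, without PBS replicate 2 and without PP replicate 3. The sign turned with the length trend removed for ATP5IF1 (0.072) and UQCRHL (0.28, adjusted p = 0.0370 by limma), and with equal totals for ATP5MC2 (0.041) and UQCRHL (0.044). Leaving out 1 library gave -0.054 to 0.038 for ATP5MC2 and -0.10 to 0.12 for UQCRHL. ATP5PF newly passed as lower with median-ratio size factors (-0.12) and without PP replicate 3 (-0.14). The cause was not tested.

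With the length trend removed the median log2 fold change was -0.27 over all members, -0.38 in complex IV, -0.23 in complex V and -0.085 in complex I, where 8 genes were higher. With equal totals it was -0.23 in complex III and -0.13 in complex I, and 6 assembly factors were lower. In complex III 1 gene was higher under equal totals (UQCRFS1) and 1 with the length trend removed (UQCRHL). Without a minimum FPKM the complex IV median, over 15 genes, was -0.44, and with median-ratio size factors the complex I median was -0.19. Leaving out 1 library gave medians of -0.20 to -0.16 for complex I and -0.29 to -0.26 for complex III, 6 to 8 lower assembly factors (6 without PBS replicate 2) and 0.098 to 0.13 for CYCS. On recovered counts the shares differed by -5.76 points for ATP5MC1, 10.6 for ATP5MC2, -4.88 for ATP5MC3 and -0.0083 for COX6B2. Leaving out 1 library gave -0.25 to 0.067 points for COX6A2, -0.0044 to 0.0013 for COX6B2, -0.46 to 0.14 for COX7B2 and 0.17 to 0.28 for COX8C.

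Deviations of same-numbered libraries correlated at -0.21, -0.014 and -0.13. Each deviation was taken from the mean of only 3 libraries, so these values cannot show whether replicate numbers pair the libraries. With a replicate block 34 members were lower and 3 higher, as without it. Voom on recovered counts called 4091 genes lower and 4515 higher in all. Leaving out a library leaves 2 in its group. The depth limits the tissue-restricted isoforms most, since they rest on at most 29 counts.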
